A study of Mus musculus with 31 samples.

Results

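The onset of the response to a neuronal antigen was described as the change in hippocampal transcripts from 2 to 5 days after vector injection, in 8 of the 31 mice of the series. The members were taken by their labels alone, as the mice injected with rAAV-hSyn-OVA-mCherry (rAAV-OVA) and killed at 5 days (n = 4) or at 2 days (n = 4). All animals were adult OT-I/Rag-/- mice by the labels, written OT-I/RAG1-/- in the methods of the study. Their CD8+ T cells carry a transgenic receptor for a peptide of ovalbumin (OVA) presented by H-2Kb, and the loss of Rag1 leaves them without mature T or B cells of any other specificity. The recombinant adeno-associated virus (rAAV) was placed in the dorsal CA1 field of both hemispheres, every mouse received the analgesic ketoprofen, and the left hippocampus was sequenced as whole tissue with 1 library per mouse. The hSyn promoter confines OVA and mCherry to neurons, and the rAAV-control mice of the same days (n = 4 each) carried mCherry alone. As a model of encephalitis the system is limited to a single T cell specificity and to the neurons that the vector reached. Sex was not given in the labels.

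At 5 days all 4 rAAV-OVA mice, D725, D726, D786 and D787, were in batch 1. At 2 days D683 and D684 were in batch 1, and BEC-B541 and BEC-B542 were in batch 2. The rAAV-control mice were divided in the same way. Each count was therefore repeated with batch 1 alone, which left D683 and D684 as the rAAV-OVA mice of 2 days. Values per mouse are listed throughout in the order D683, D684, BEC-B541, BEC-B542 at 2 days and D725, D726, D786, D787 at 5 days.

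CD8+ T cells recognise peptides on MHC class I molecules, which neurons display sparingly unless interferon acts on them. An activated CD8+ T cell releases granzymes and interferon gamma. Interferon gamma signals through JAK kinases to transcription factors that induce IRF1, the class II transactivator Ciita, guanylate-binding proteins, immunoproteasome subunits and the chemokines that attract further T cells and monocytes. In the hippocampus, microglia, astrocytes and endothelium respond to these signals together with the neurons.

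Expression is given in CPM, counts per 1e+06 counts of the TMM-scaled library. Log2FC is the change from 2 to 5 days in a model of all 31 mice that also holds 2 surrogate variables. These are differences between libraries estimated beyond vector and day, so Log2FC can depart from the ratio of the mean CPM. They were not balanced over the days. The first lay between -0.25 and -0.01 in the rAAV-OVA mice of 5 days and between -0.23 and 0.32 in those of 2 days. The variables can therefore take up part of a change with day. A differentially expressed gene (DEG) passed an FDR of 0.05 and changed by 0.66 or more on the log2 scale in either direction. SE is the standard error of the Log2FC. Counts were repeated without the surrogate variables (without covariates), with batch 1 or 2 in their place (with the batch label), and by DESeq2 and limma voom. The FDR came from the quasi-likelihood test of edgeR with Benjamini-Hochberg adjustment over the 15648 genes.

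The libraries of the rAAV-OVA mice held 25270525 to 29313998 counts at 2 days and 24767580 to 32698495 at 5 days. In a principal component analysis of the 16 mice of 2 and 5 days, PC1 carried 80.6% of the variance of the 500 most variable genes. The rAAV-OVA mice of 5 days scored between 30.9 and 39.4 on it, and the highest of the other 12 mice, the rAAV-control mouse D743 of 2 days, scored 1.9. Among the rAAV-OVA mice of 2 days BEC-B542 lay nearest to the mice of 5 days, at -0.2, and D683, D684 and BEC-B541 lay at -8.3, -13.6 and -13.4. D684 stood apart in another way. The 10 listed choroid plexus and ependyma genes summed to 5216 CPM in it against 107 to 209.6 CPM in the other rAAV-OVA mice of 2 days and 63.9 to 169.8 CPM at 5 days, and ribosomal protein genes made up 3.44% of its counts against 1.01 to 2.09% in the other 7 mice. None of these 10 genes was a DEG in the fit of all mice (5 had an unadjusted p under 0.05, and DESeq2 called 4), but 8 of them fell in batch 1 alone, where D684 was 1 of 2 mice, and 6 fell without BEC-B542. In the rAAV-control mice these genes summed to 688 to 2079 CPM at 2 days, and at 5 days to 3866 CPM in D724 and to 64.2 to 159 CPM in the other 3 mice. The part of this tissue in other changes, and in the comparisons with the control vector, was not tested. The tissue carried the markers of its fields and cell classes in all 8 mice, among them Slc17a7, the vesicular glutamate transporter of principal neurons, at 1087 to 1359 CPM. Of 7 listed genes of B and NK cells 2 were in the table, Cd79b of B cells and Eomes, which CD8+ T cells also express.

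**Figure D1:**
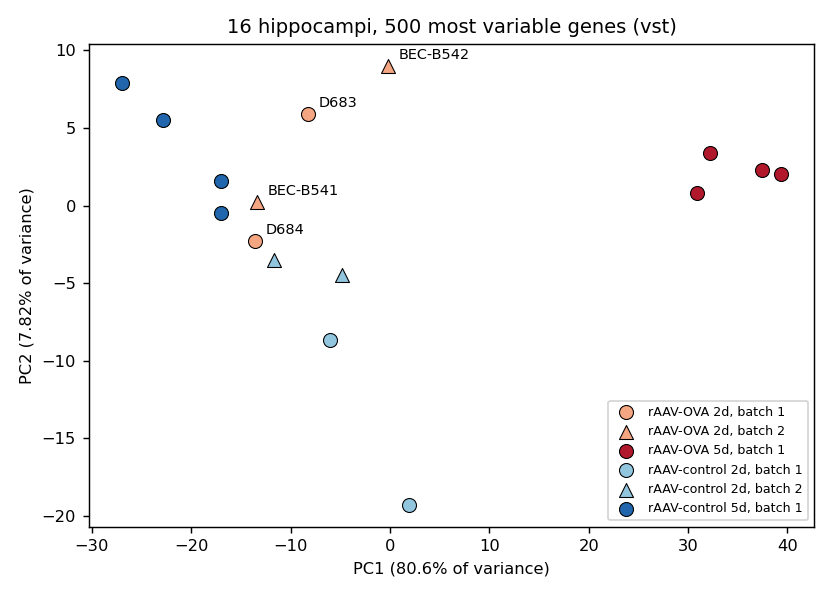
Scores of the 16 mice of 2 and 5 days on the first components of the 500 most variable genes, with PC1 (80.6% of variance) on the x axis, PC2 (7.82%) on the y axis, colour for vector and day, and circles for batch 1 and triangles for batch 2. The rAAV-OVA mice of 5 days lie at 30.9 or above on PC1, and the rAAV-OVA mice of 2 days spread from -13.6 to -0.2.

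From 2 to 5 days 1032 genes rose in rAAV-OVA mice (6.60% of those tested) and 354 fell (2.26%). The median Log2FC was 1.41 over the increased and -0.90 over the decreased DEGs, and -0.01 over all genes. The 4 mice of 5 days did not overlap the 4 of 2 days in 1265 of the 1386 DEGs (91.3%). Over all genes, 17.7% did not overlap with the mice of 5 days higher, and 10.6% with those of 5 days lower. With batch 1 alone 1230 genes rose (7.86%) and 1533 fell (9.80%), so the share of increases went from 74.5% to 44.5%. Of the increased DEGs 871 (84.4%) also rose in batch 1 alone, and of the decreased DEGs 255 (72%) also fell. The balance between the directions also rested on BEC-B542, since without this mouse 794 genes rose and 912 fell. Leaving out D786 at 5 days gave the lowest total, 778 DEGs. Leaving out BEC-B541 gave the highest, 1763.

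T cell transcripts made up much of the top of the increase. All 9 listed genes of the T cell receptor and T cell identity that are in the table rose, by a median Log2FC of 3.58. The 6 cytotoxic effector genes that are in the table, of 17 listed, all rose, by a median of 3.66. The table keeps only genes with at least 15 counts in 15 or more mice. A gene expressed only in the 12 rAAV-OVA mice of 5 days and later would not be in it, and 12 of the 21 listed T cell genes, Cd3e among them, were not. Those that passed were bound to differ if they passed through these mice, so the counts describe the list and support nothing further. In batch 1 alone 9 of 9 and 5 of 6 rose.

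Cd8a (ENSMUSG00000053977.14), a chain of the CD8 coreceptor, was at 0.11, 0, 0.162 and 0.257 CPM at 2 days and at 42.3, 43.2, 46.2 and 32 CPM at 5 days. D684 had no Cd8a count, which allows up to 0.126 CPM (3 counts, counting error only). The groups lay far apart, with all mice of 2 days near the limit of detection. Cd8a had the largest Log2FC of all DEGs, 7.23 (SE 0.80, FDR 1.5e-05). Trbc2, a constant region of the receptor beta chain, went from 1.35, 1.39, 2.63 and 1.54 CPM to 93.9, 109.5, 86 and 65.8 CPM (Log2FC 4.76, SE 0.63, FDR 5.2e-05). Trbv12-1, a variable segment of the same chain, went from 0.531 ± 0.132 to 34.1 ± 7.54 CPM (SD, n = 4 each), a Log2FC of 5.06 (SE 0.64, FDR 3.5e-05). Near-identical Trbv segments can share reads, so the segment itself is uncertain. Lck, the kinase that starts signalling below the receptor, went from 1.13 ± 0.246 to 22.3 ± 3.29 CPM. In each of these genes D787 was the lowest mouse of 5 days.

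Gzmb (ENSMUSG00000015437.6) encodes granzyme B, the protease that cytotoxic T cells deliver into their targets. It was at 0.475, 0.252, 0 and 0.514 CPM at 2 days and at 44.6, 11.6, 42 and 26.5 CPM at 5 days (Log2FC 5.78, SE 0.82, FDR 1.2e-04). The groups did not overlap, and D726 was the lowest of the 5-day mice, whereas in Cd8a that was D787. BEC-B541 had no Gzmb count, which allows up to 0.0975 CPM. Gzma, the companion granzyme, went from 0.57 ± 0.175 to 9.39 ± 2.91 CPM. Xcl1, a chemokine released by activated CD8+ T cells, went from 0.695, 0.631, 0.065 and 1.4 CPM to 39.4, 40.7, 37 and 25.4 CPM (Log2FC 4.77, SE 0.63). Serpinb9, an inhibitor of granzyme B that T cells and other immune cells make, rose least of the list, with a Log2FC of 1.11 (FDR 0.00645), and without BEC-B542 its FDR was 0.0886. In batch 1 alone it was not a DEG.

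Of 18 listed genes of T cell activation and cytokine reception 14 were in the table, and the limit of the filter given above applies to them too. Of these 14 genes 13 rose (median Log2FC 2.83, also 13 in batch 1 alone). Il2rb, which carries signals of the T cell growth factors interleukin 2 and 15, was at 0.804, 0.379, 0.682 and 1.43 CPM at 2 days and at 53.3, 47, 61 and 36.6 CPM at 5 days (Log2FC 4.97, SE 0.61, FDR 2.7e-05). Eomes, a transcription factor of memory and effector CD8+ T cells that some neurons also express, did not pass the test. It was at 2.23, 2.86, 0.715 and 2.06 CPM at 2 days and at 2.29, 1.2, 1.76 and 2.29 CPM at 5 days, with a Log2FC of -0.36 (FDR 0.75). Thus the mice overlapped fully in Eomes while they did not overlap in the other 13 genes.

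Of 17 listed checkpoint and costimulatory genes 8 were in the table, and the limit of the filter given above applies to them too. Of these 8 genes, 4 rose. They were Tnfrsf9, an activation receptor of T cells, with a Log2FC of 4.27, Lag3, an inhibitory receptor, with 2.36, Cd40 with 2.34 and Cd86 with 1.75. Cd274, which encodes the ligand PD-L1, was at 16.2, 12.1, 4.32 and 82.3 CPM at 2 days and at 137, 70.2, 126 and 95.4 CPM at 5 days. BEC-B542 lay above D726 of 5 days, so the groups overlapped, and the Log2FC of 1.24 did not pass (FDR 0.123). Without BEC-B542 it was a DEG. Cd80, Tnfsf9 and Havcr2 had a Log2FC of 1.33, 1.17 and 1.04 and did not pass, though Cd80 was a DEG without D787 or BEC-B541 and Havcr2 without BEC-B541. In batch 1 alone 6 of the 8 rose, Cd274 and Havcr2 added, without covariates 7, and with the batch label all 8.

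**Figure D2:**
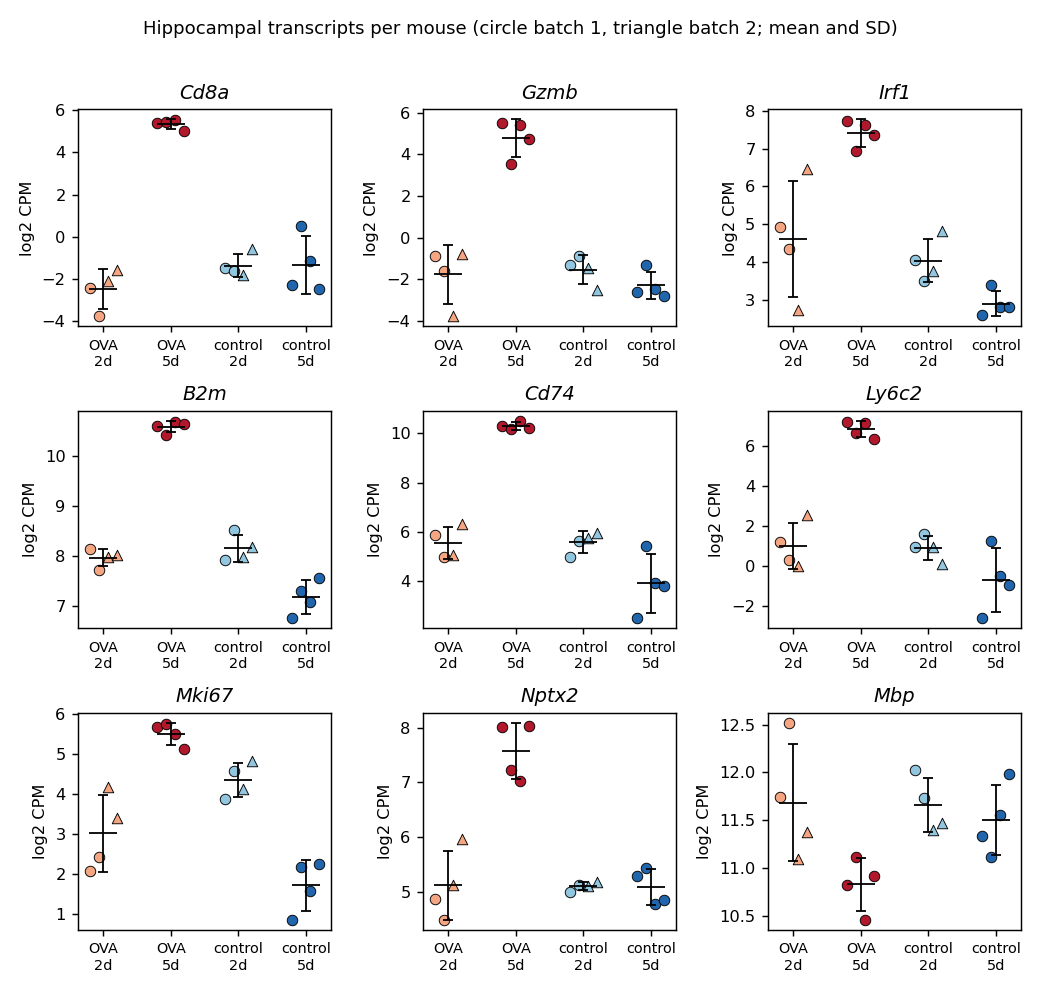
Expression of 9 genes per mouse as log2 CPM (y axis, a separate linear scale in each panel) in the 4 groups of 2 and 5 days, with circles for batch 1, triangles for batch 2, and a bar and whiskers for the mean and SD of 4 mice. Cd8a, Gzmb, Cd74 and Ly6c2 separate the rAAV-OVA mice of 5 days from all other mice, Irf1 spreads from 6.59 to 87.6 CPM at 2 days in rAAV-OVA mice, and Mbp lies lower at 5 days with D684 highest at 2 days.

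Interferon-induced genes were higher in every rAAV-OVA mouse of 5 days than in any of 2 days, but the mice of 2 days differed widely among themselves. The 20 listed interferon-induced GTPases and the 28 type I interferon-stimulated genes were all non-overlapping, with a median Log2FC of 1.73 and 1.39. At the limits for DEGs 9 and 12 of them rose. In batch 1 alone 13 and 15 rose, without covariates 17 and 24, and with the batch label in place of the surrogate variables 20 and 26. Without D684 the counts were 2 and 1. Without BEC-B542 they were 15 and 9.

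Gbp2, a guanylate-binding protein that restricts intracellular microbes, showed the spread. It was at 121, 66.5, 15.1 and 382 CPM at 2 days and at 1036, 558, 853 and 839 CPM at 5 days. BEC-B541 was the lowest of the 4 mice of 2 days and BEC-B542 the highest, and both were in batch 2. The Log2FC of 1.60 (SE 0.68) did not pass the test (FDR 0.112), whereas without covariates it was 2.49 and with the batch label 2.84, and Gbp2 was then a DEG. Cxcl10, a chemokine for T cells, had the same order of mice, with 27.2, 11.4, 3.05 and 76.5 CPM at 2 days and 366, 119, 267 and 259.8 CPM at 5 days (Log2FC 2.13, SE 0.79, FDR 0.0666), and it was a DEG without D683 or BEC-B542, without covariates, with the batch label and by limma voom. In BEC-B542 neither Cd8a, at 0.257 CPM, nor Gzmb, at 0.514 CPM, was near the level of 5 days. The interferon-induced GTPases summed to 645, 379.8, 112 and 1889.6 CPM at 2 days and to 3042 to 5041 CPM at 5 days, and in the rAAV-control mice of 2 days to 202 to 348 CPM. D683, D684 and BEC-B542 thus lay above the rAAV-control mice of 2 days, and BEC-B541 lay below them.

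Irf1 (ENSMUSG00000018899.18), a transcription factor induced by interferon gamma, was at 30.4, 20.3, 6.59 and 87.6 CPM at 2 days and at 214, 122, 199.7 and 164 CPM at 5 days. The groups did not overlap, and the Log2FC was 1.62 (SE 0.48, FDR 0.0241). Of the 25 listed receptors, JAK kinases, STAT and IRF factors and their feedback inhibitors 11 rose (median 1.00; 14 in batch 1 alone, 20 without covariates or with the batch label). Ciita, the master regulator of MHC class II genes, rose most, from 4.73 ± 5.31 to 54.9 ± 13.2 CPM (Log2FC 2.72, FDR 0.00483), and Socs1, the feedback inhibitor of JAK signalling, had a Log2FC of 2.11 (FDR 0.0026). Gbp7 rose by 1.53 (FDR 0.0272), Gbp4 by 2.52 and Gbp8 by 3.06 on the log2 scale. The calls of Irf1 and Gbp7 were lost when any mouse of 5 days, D684 or BEC-B541 was left out, with the FDR reaching 0.132 and 0.109. That of Gbp4 was lost without D786 (FDR 0.0812). Guanylate-binding proteins are near-identical copies between which reads can be divided wrongly.

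The promoter sequences of 4 genes that rose are shown because they hold the elements through which interferon signals are read. The windows are the 250 bases before the start of the gene, taken from RefSeq (GRCm38.p6) by symbol, 5′ to 3′ on the strand of the gene. Capitals mark the gamma-activated site (GAS, TTCNNNGAA) and the interferon-stimulated response element (ISRE, GAAA, any 2 bases and GAAA, on either strand).
Irf1: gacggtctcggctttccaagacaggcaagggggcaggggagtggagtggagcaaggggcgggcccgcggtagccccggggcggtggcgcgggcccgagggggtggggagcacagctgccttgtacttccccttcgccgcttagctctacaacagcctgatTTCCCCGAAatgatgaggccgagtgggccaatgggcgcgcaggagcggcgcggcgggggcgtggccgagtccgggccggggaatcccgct
Gbp7: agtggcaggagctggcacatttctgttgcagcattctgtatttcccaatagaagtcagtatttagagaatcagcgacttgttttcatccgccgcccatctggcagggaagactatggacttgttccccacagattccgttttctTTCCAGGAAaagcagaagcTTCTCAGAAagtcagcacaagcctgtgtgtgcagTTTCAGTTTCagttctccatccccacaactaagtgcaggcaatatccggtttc
B2m: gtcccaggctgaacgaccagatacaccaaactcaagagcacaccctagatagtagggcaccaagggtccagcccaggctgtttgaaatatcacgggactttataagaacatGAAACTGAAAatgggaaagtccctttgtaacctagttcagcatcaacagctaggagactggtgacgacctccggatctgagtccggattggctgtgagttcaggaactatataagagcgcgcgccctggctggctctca
Socs1: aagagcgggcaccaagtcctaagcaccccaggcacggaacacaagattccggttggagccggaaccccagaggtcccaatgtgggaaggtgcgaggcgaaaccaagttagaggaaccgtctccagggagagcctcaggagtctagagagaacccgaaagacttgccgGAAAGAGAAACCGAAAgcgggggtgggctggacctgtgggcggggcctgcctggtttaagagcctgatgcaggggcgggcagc
The Irf1 window lies at chr11:53769764-53770013 on the plus strand and holds the GAS TTCCCCGAA at 90 to 82 bases before the start, and a second annotated start of Irf1 had no match. The Gbp7 window, at chr3:142530086-142530335 on the plus strand, holds 2 GAS matches and 1 ISRE match (TTTCAGTTTC). The B2m window, at chr2:122147437-122147686 on the plus strand, holds the ISRE GAAACTGAAA. The Socs1 window, at chr16:10785537-10785786 on the minus strand, holds 2 ISRE matches that overlap, GAAAGAGAAA and GAAACCGAAA.

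A GAS was present in 7.02% and an ISRE in 2.98% of all 32851 promoter windows of this length, and in 5.81% and 2.67% of the 14810 windows of genes in the count table. Among windows of increased DEGs, of which 791 of 1032 were found by symbol, the shares were 8.22% and 7.22%. Among windows of decreased DEGs (241 of 354) they were 7.46% and 2.71%. Not all listed genes had a window. In the 10 of 20 interferon-induced GTPases that did, 6 of 11 windows held a GAS (54.5%) and 9 of 11 an ISRE (81.8%), and in 18 of 28 type I interferon-stimulated genes 15% and 50% of 20 windows did. In the other lists that the genes shown belong to, the shares were 9.09% and 13.6% of 22 windows of the MHC class I pathway and 20% and 12% of 25 windows of interferon receptors, JAK kinases, STAT and IRF factors. A match describes the letters of the window and is not a measured binding site.

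**Figure D3:**
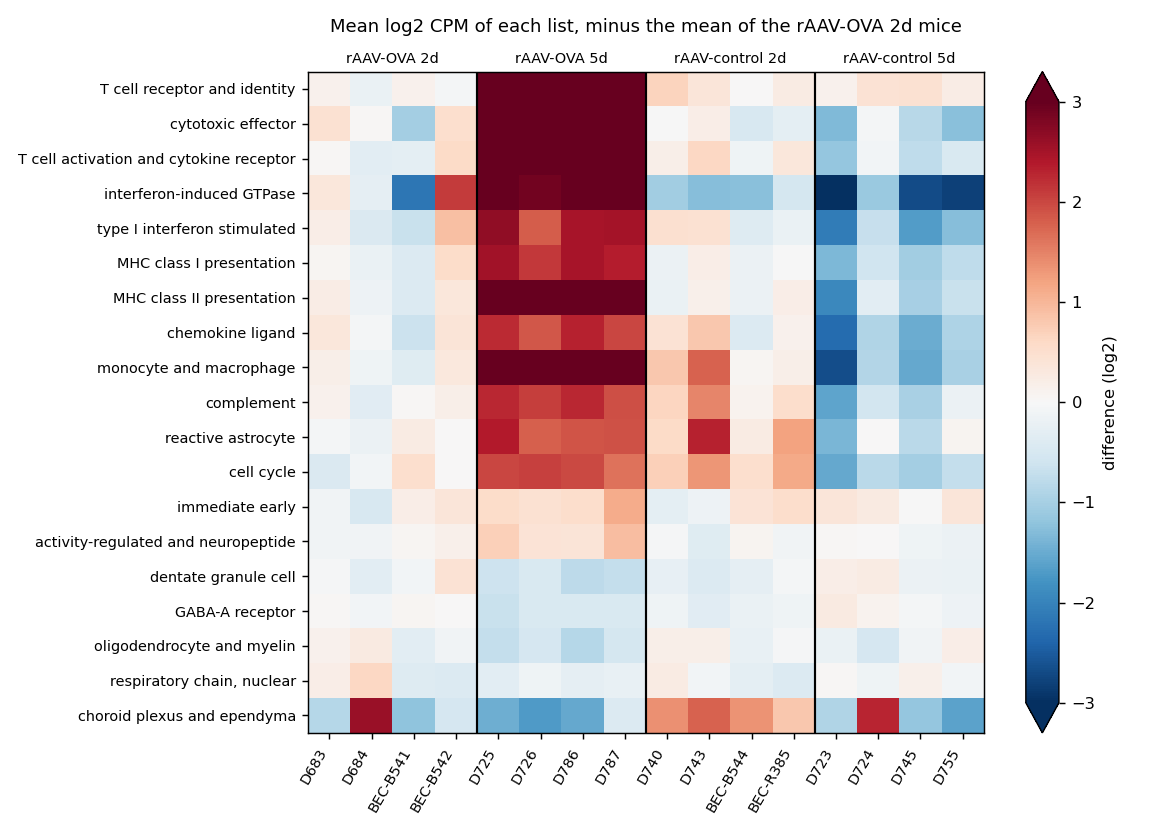
Mean log2 CPM of 19 gene lists (rows) in the 16 mice of 2 and 5 days (columns), minus the mean of the rAAV-OVA mice of 2 days, with red for higher and blue for lower and a scale that ends at 3 in each direction. The interferon rows of the rAAV-OVA mice of 2 days run from blue in BEC-B541 to red in BEC-B542, the T cell receptor row of these mice stays within -0.21 and 0.14, the cytotoxic effector row runs from -1.01 in BEC-B541 to 0.51 in BEC-B542, and the choroid plexus row is red in D684.

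Genes of antigen presentation rose almost without exception. Of 22 genes of the MHC class I pathway 21 rose (median Log2FC 1.67; 16 in batch 1 alone) and of 11 of the class II pathway all rose (median 2.34; 11 in batch 1 alone). B2m, the light chain of class I molecules, was at 282, 213, 254 and 261 CPM at 2 days and at 1564, 1366, 1646 and 1594 CPM at 5 days (Log2FC 1.85, SE 0.52, FDR 0.0186). The mice of each day lay close together in B2m, including BEC-B542. H2-K1, the heavy chain that presents the OVA peptide to OT-I cells, was at 109.7, 77.5, 112 and 111 CPM at 2 days and at 1015, 775, 984 and 898 CPM at 5 days (Log2FC 2.26, SE 0.61, FDR 0.0155). H2-Q7, a nonclassical heavy chain with close relatives, had the largest Log2FC of the list, 3.97. Tap1, the peptide transporter into the endoplasmic reticulum, followed the interferon genes at 2 days, with 29.4, 14.6, 9.45 and 72.8 CPM, and went to 218, 143, 206 and 181 CPM (Log2FC 1.78, FDR 0.0238). Psmb8 and Psmb9, subunits of the immunoproteasome, rose by 2.07 and 1.82 on the log2 scale. Canx, a chaperone of new heavy chains, was not a DEG, with 356 ± 7.5 and 410.3 ± 14 CPM and a Log2FC of 0.17. Without D786 the FDR of B2m was 0.0699, that of H2-K1 0.0591, that of Psmb8 0.0526 and that of Psmb9 0.0734, and Tap1 was lost without any mouse of 5 days, D684 or BEC-B541 (FDR up to 0.12). Reads of the classical heavy chains can be divided among near-identical copies.

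In the class II pathway Cd74, the invariant chain, was at 58.8, 31.3, 33 and 79 CPM at 2 days and at 1239, 1149, 1453 and 1197 CPM at 5 days (Log2FC 3.57, SE 0.88, FDR 0.00858). The groups were far apart, and the spread among the mice of 5 days was small. H2-Aa, the alpha chain of the class II molecule, went from 23.1 ± 7.75 to 552 ± 51.4 CPM (Log2FC 3.46), and H2-Oa, a modulator of peptide loading, had the largest Log2FC of the list, 3.59 (FDR 6.3e-04). Ctss, the protease that trims the invariant chain, had the smallest, 1.73, from 160.0 ± 13.6 to 808 ± 36.5 CPM.

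Chemokines for T cells and monocytes were among the genes that rose, though with wide spread. Of 18 chemokine ligands 6 rose and 1 fell (median Log2FC 1.93; 6 and 2 in batch 1 alone, 10 and 1 without covariates or with the batch label). Cxcl9, the interferon-induced ligand of CXCR3, was at 18, 7.03, 1.92 and 19.9 CPM at 2 days and at 150.2, 102, 179 and 139 CPM at 5 days (Log2FC 2.50, SE 0.83, FDR 0.042). Its groups did not overlap, and its call was lost without any 1 of 7 of the 8 mice, D683 excepted (FDR up to 0.165). Ccl2, which attracts monocytes, went from 3.51, 2.52, 0.845 and 12.7 CPM to 62.8, 22.9, 55.7 and 38.2 CPM (Log2FC 2.35, FDR 0.0361), a call lost by DESeq2 and without any mouse of 5 days, D684 or BEC-B541 (FDR up to 0.191). Ccl5 was at 15.4 ± 7.68 and 67.6 ± 9.9 CPM and was not a DEG (Log2FC 1.10, FDR 0.412). Cxcl12, a constitutive chemokine, fell from 60.1, 50.1, 50.3 and 54.6 CPM to 20.7, 30.9, 35.8 and 32.8 CPM (Log2FC -0.73, FDR 0.017), and the call was lost without D725 or BEC-B542 (FDR up to 0.0691). Without D684 none of the 18 ligands was an increased DEG, and without BEC-B542 4 were. Of 8 chemokine receptors 5 rose, among them Ccr7, Ccr1, Ccrl2 and Cxcr4 by 4.27, 2.36, 2.03 and 1.27. The call of Cxcr4 was lost in batch 1 alone and without any 1 of 7 mice, BEC-B541 excepted (FDR up to 0.158). Ccr2, the receptor of inflammatory monocytes, was at 7.13, 6.77, 9.29 and 4.04 CPM at 2 days and at 44.4, 24.2, 28.4 and 18.6 CPM at 5 days, with a Log2FC of 1.23 that did not pass (FDR 0.175). Ccr2 was a DEG without BEC-B541, in batch 1 alone, without covariates, with the batch label and by limma voom.

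Inflammatory cytokines and effectors rose in 11 of 14 genes (median Log2FC 1.63; 10 in batch 1 alone). Nos2, the inducible nitric oxide synthase of activated macrophages, was at 1.54, 0.926, 1.4 and 1.87 CPM at 2 days and at 40.2, 26.6, 88.5 and 29 CPM at 5 days (Log2FC 4.44, SE 0.55, FDR 2.7e-05). Il1b was at 0.658, 1.51, 0.747 and 0.624 CPM at 2 days and at 20.7, 11.6, 42.2 and 12.3 CPM at 5 days (Log2FC 4.41, SE 0.80, FDR 0.00114). In both genes D786 was far above the other mice of 5 days, and the groups did not overlap. Tnf went from 0.379 ± 0.419 to 5 ± 3.03 CPM (Log2FC 2.90, FDR 0.0136), and Acod1, which makes the antimicrobial metabolite itaconate, from 1.82 ± 1.67 to 45 ± 19.5 CPM. Il1rn, the antagonist of interleukin 1, rose by 3.49 on the log2 scale. Without D786 the FDR of Tnf was 0.0587 and that of Il1rn 0.0635. Il18, Il15 and Gch1 did not pass, with a Log2FC of 0.05, 0.20 and 0.58, though Gch1 did without covariates. Il18 was at 14.2, 26, 11.4 and 9.66 CPM at 2 days and at 12.9, 13.5, 12 and 13.6 CPM at 5 days, which overlap.

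Of 16 NF-kB subunits, kinases and inhibitors 9 rose (median Log2FC 1.03; 10 in batch 1 alone). Nfkb2, Ikbke, Bcl3, Nfkbid, Rel, Nfkbie, Nfkb1, Tnfaip3 and Relb rose by 0.99 to 1.94. Bcl3, a nuclear coactivator of the family, was at 1.43, 1.05, 2.34 and 3.52 CPM at 2 days and at 17.7, 10.6, 15.7 and 12.8 CPM at 5 days (Log2FC 1.94, FDR 0.0375). Its call was lost without any 1 of 7 mice, BEC-B541 excepted (FDR up to 0.135). Those of Nfkbie, Relb, Tnfaip3 and Ikbke were each lost without 5 or 6 of the mice left out in turn, D726, D786, D684 and BEC-B542 among them (FDR up to 0.169, 0.112, 0.226 and 0.156), that of Nfkbid without D725, D726 or D786 (FDR up to 0.0898) and that of Nfkb2 without D786 (FDR 0.0632). Rela, the main activating subunit, went from 18.7 ± 1.7 to 31.1 ± 2.28 CPM and was not a DEG (Log2FC 0.47, FDR 0.0779) except without covariates or with the batch label. By limma voom Nfkbid, Nfkbie and Tnfaip3 were not called and 6 of the 16 rose. Without D684, and likewise without BEC-B542, 4 of the 16 rose. Of 18 pattern recognition receptors and adaptors 6 rose (median 1.07; 10 in batch 1 alone, 16 without covariates, 15 with the batch label), led by Nod2 with 2.73.

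In the list of inflammasomes and lytic cell death 12 of 13 genes rose (median Log2FC 1.54; 11 in batch 1 alone, 7 without D684, 8 without BEC-B542). They include Casp1, the protease of the inflammasome, with 1.55, Gsdmd, the pore of pyroptosis, with 1.54, and Ripk3, the kinase of necroptosis, with 2.35. Il18bp, an interferon-induced inhibitor of interleukin 18, was at 4.39, 4.42, 4.22 and 9.66 CPM at 2 days and at 54.6, 46.8, 56.1 and 50.7 CPM at 5 days, the largest Log2FC of the list at 2.37 (SE 0.46, FDR 0.00186). BEC-B542 was the highest mouse of 2 days here too, and the groups did not overlap. Mlkl, the pore of necroptosis, rose by 1.95 (FDR 0.0255), a call lost without D725, D726, D786, D684 or BEC-B541 (FDR up to 0.124). That of Gsdmd was lost without D725, D726, D786, D684 or BEC-B542 (FDR up to 0.116), and that of Casp1 without D786 or BEC-B542 (FDR up to 0.0844). Fas, a death receptor, was at 3.37 ± 0.831 and 7.83 ± 0.83 CPM and did not pass (Log2FC 0.79, FDR 0.234).

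Complement genes moved less evenly. Of 14, only Cfb, C2, Serping1 and C5ar1 rose, by 3.77, 1.65, 1.94 and 1.82 (6 genes rose and 1 fell in batch 1 alone, 13 rose without covariates and 11 with the batch label). Cfb, a component of the alternative pathway, was at 6.47, 3.2, 5.13 and 14.4 CPM at 2 days and at 247, 161, 293 and 173 CPM at 5 days (SE 0.80, FDR 0.00333). C3 went from 22.5, 15.4, 31.4 and 28.9 CPM to 229, 255, 285 and 171 CPM without overlap, but its Log2FC of 2.23 had an SE of 0.99 and did not pass (FDR 0.125). C1qa, a chain of the initiating complex, was at 128 ± 16.9 and 367 ± 6.66 CPM and did not pass either (Log2FC 0.96, FDR 0.136). Both were DEGs without covariates and with the batch label. The call of C2 was lost by limma voom and without any mouse of 5 days, D684 or BEC-B542 (FDR up to 0.12), and that of Serping1 without D786 (FDR 0.0561).

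Monocyte and macrophage genes rose in 10 of 17 cases (median Log2FC 2.00; 11 in batch 1 alone, 16 without covariates, 15 with the batch label, 7 without D684) and were higher in every mouse of 5 days in all 17. Ly6c2, a surface protein of inflammatory monocytes that CD8+ T cells also carry, was at 2.19, 1.14, 0.91 and 5.69 CPM at 2 days and at 149, 101, 145 and 83.2 CPM at 5 days (Log2FC 4.56, SE 0.71, FDR 2.6e-04). Ly6i, of the same family of close copies, went from 0.511 ± 0.428 to 65.1 ± 16.7 CPM (Log2FC 6.03). Plac8 went from 2.66 ± 2.36 to 73.9 ± 14.6 CPM (Log2FC 3.98, FDR 2.4e-04). Lyz2, lysozyme of myeloid cells, was at 87, 129, 107 and 42.6 CPM at 2 days and at 632, 1011, 651 and 383 CPM at 5 days, but its Log2FC of 2.00 did not pass (FDR 0.108). Lyz2 was a DEG without BEC-B541, without covariates, with the batch label and by limma voom. Mcemp1 and Clec4d, which monocytes and neutrophils express, went to 8.18 ± 2.72 and 12.7 ± 4.43 CPM from 0.132 ± 0.0526 and 0.243 ± 0.133 CPM (Log2FC 5.11 and 4.81). Of 9 listed neutrophil genes 2 were in the table, of which Csf3r rose by 1.57, a call lost without D726, D786 or BEC-B542 (FDR up to 0.081). None of 7 border-associated macrophage genes rose, which for so few genes cannot be told from the share over all genes (6.60%). In that list 1 of 7, Cbr2, passed, and it fell by 2.09 on the log2 scale, from 1.28 ± 0.433 to 0.259 ± 0.189 CPM. In batch 1 alone 2 of the 7 fell, and 3 fell without BEC-B542, without covariates or with the batch label.

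Most of the listed homeostatic microglial genes lay higher at 5 days, though few passed the test. The list does not hold Fcrl2, which fell (Log2FC -1.90, given below). Of 11 genes 9 were higher in every mouse of 5 days and none was lower in every one (median Log2FC 0.62), and their summed level went from 682 to 784 CPM at 2 days to 1270.3 to 1309.7 CPM at 5 days. Csf1r and P2ry13 rose, by 0.79 and 0.78, and Gpr34 fell. In batch 1 alone 1 rose and 1 fell (median 0.42). Without covariates 7 rose and 1 fell, and with the batch label 6 and 1. Without D684 1 of the 11 rose, and without BEC-B542 none did. Gpr34, a lysophosphatidylserine receptor of resting microglia, was at 22.8, 31.2, 13.7 and 8.52 CPM at 2 days and at 6.51, 10.9, 7.77 and 5.56 CPM at 5 days (Log2FC -1.09, SE 0.26, FDR 0.00624). BEC-B542 lay below D726 in Gpr34, so the groups overlapped by this pair. P2ry12, the purinergic receptor by which resting microglia sense injury, was at 40.7 ± 8.8 and 33.9 ± 3.51 CPM (Log2FC -0.27, FDR 0.367). The FDR of Csf1r was 0.0431, and the call was lost without any mouse of 5 days, D684 or BEC-B542 (FDR up to 0.136). Of 17 genes of activated microglia Cst7, Itgax, Lgals3, Clec7a and Axl rose, by 3.92, 2.41, 2.30, 1.99 and 0.77, and Lpl fell by 0.87 on the log2 scale. Of the 17 genes 3 rose without D684 or BEC-B542, 4 in batch 1 alone, 10 without covariates and 8 with the batch label. The fall of Lpl did not pass in batch 1 alone (-0.37), without covariates (-0.58) or with the batch label (-0.46), and Axl, Clec7a and P2ry13 did not pass in batch 1 alone. Cst7, a protease inhibitor of activated microglia and of cytotoxic lymphocytes, went from 0.976 ± 0.532 to 31.6 ± 4.18 CPM. The calls of Lgals3 and Itgax were lost without D786 (FDR 0.0598 and 0.0796), that of P2ry13 without D786 or BEC-B542 (FDR up to 0.0636), that of Axl without any mouse of 5 days, D684 or BEC-B542 (FDR up to 0.11), and that of Clec7a without D725, D726, D786, D684 or BEC-B542 (FDR up to 0.186).

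Among astrocyte genes 4 of 15 reactive markers rose, Lif by 3.68, Cd44 by 2.27, Tnc by 1.96 and Hspb1 by 1.50. All 15 were higher in every mouse of 5 days (median Log2FC 1.15), and 12 were increased DEGs without covariates, 9 with the batch label and 5 in batch 1 alone. Cd44, a receptor for matrix hyaluronan that T cells carry as well, was at 11.4, 11.3, 20.7 and 18.9 CPM at 2 days and at 183, 90.6, 109 and 139 CPM at 5 days (SE 0.54, FDR 0.00706). Tnc, a matrix protein, went from 12.5 ± 3.66 to 64.1 ± 17.7 CPM (SE 0.35, FDR 9.2e-04). The call of Hspb1 was lost in batch 1 alone and without D725, D787 or BEC-B542 (FDR up to 0.0768). Gfap, the astrocyte filament, was at 1235, 1307, 1352 and 1262 CPM at 2 days and at 3054, 2452, 1925 and 2758 CPM at 5 days. The groups did not overlap, but the Log2FC of 0.43 (SE 0.42) did not pass (FDR 0.535), nor did that of 0.98 without covariates (FDR 0.0961). Lcn2 also did not pass, at 21.1 ± 7.58 and 185 ± 52 CPM (Log2FC 1.76, FDR 0.298), except without covariates and by limma voom. None of the 15 homeostatic astrocyte genes was a DEG by edgeR, DESeq2 or limma voom with the surrogate variables (median -0.04, 8 with an unadjusted p under 0.05). In batch 1 alone 6 fell, without BEC-B542 or without covariates 3, and with the batch label 4.

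Myelin genes held more decreased DEGs than any other of the 54 lists. Of 13 genes 9 fell (median Log2FC -0.90), 12 in batch 1 alone and 7 without covariates, and the groups did not overlap in 7. Mal, a proteolipid of myelin, was at 432, 462, 243 and 315 CPM at 2 days and at 127, 175, 121 and 171 CPM at 5 days (Log2FC -1.33, SE 0.25, FDR 0.00141). Mbp was at 3424, 5881, 2192 and 2672 CPM at 2 days and at 1806, 2219.7, 1412 and 1937 CPM at 5 days (Log2FC -0.94, SE 0.26, FDR 0.0166). D684 was the highest mouse in Mbp, BEC-B541 lay just below D726, and without D684 or D786 the call was lost (FDR up to 0.0924). Within 2 days the batch 1 mice D683 and D684 were above the batch 2 mice in Mal, Mbp and Mog, while the 2 batches interleaved in Olig2. Olig2, a transcription factor of the whole lineage, had a Log2FC of 0.24, and none of 6 oligodendrocyte precursor genes was a DEG by any of the 3 tools (1 with an unadjusted p under 0.05), though 1 rose without D684. In bulk tissue a fall of this kind can come from fewer cells or from less RNA per cell, and these cannot be told apart here.

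Proliferation genes rose with the immune genes. Of 21 cell cycle genes 13 rose (median Log2FC 1.27; 18 in batch 1 alone, 19 without covariates or with the batch label) and of 20 DNA replication genes 12 rose (median 0.74; 10 in batch 1 alone). Mki67, a marker of cycling nuclei, was at 4.13, 5.3, 18.2 and 10.6 CPM at 2 days and at 51.1, 53.4, 45.2 and 34.9 CPM at 5 days (Log2FC 1.66, SE 0.49, FDR 0.0241). At 2 days the batch 2 mice lay above the batch 1 mice, and all lay below the mice of 5 days. Top2a, the topoisomerase of mitosis, had a Log2FC of 1.66 (FDR 0.015), and Pclaf, a partner of the replication clamp, of 1.90 (FDR 0.011). The call of Mki67 was lost without D726, D786, D683, D684 or BEC-B542 (FDR up to 0.105), that of Top2a without D726, D786 or BEC-B542 (FDR up to 0.0635) and that of Pclaf without D786 (FDR 0.0515). Without BEC-B542 3 of the 21 cell cycle genes rose, and without D684 6 did. Of the DNA replication genes 5 rose without BEC-B542. Ccne1, a cyclin of entry into DNA synthesis, did not pass (Log2FC 0.24).

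At the vessels Vcam1, the adhesion molecule to which T cells bind, was at 53.6, 50.2, 46.7 and 56.5 CPM at 2 days and at 202, 157, 181 and 181 CPM at 5 days (Log2FC 1.32, SE 0.31, FDR 0.00602). Of 7 adhesion and activation genes 1, Vcam1, was a DEG, and 2 were in batch 1 alone, without BEC-B542, by DESeq2 and by limma voom, 3 without covariates and 4 with the batch label. Icam1 had a Log2FC of 1.67 without passing, and passed without covariates, with the batch label, by DESeq2 and by limma voom. Of 13 barrier genes Mfsd2a, a lipid transporter of the barrier, rose by 0.89 and Slco1a4, an organic anion transporter, fell by 0.74 on the log2 scale. The call of Slco1a4 was lost without D725 or D683 (FDR up to 0.0549), and that of Mfsd2a with the batch label and without D725, D787, D684 or BEC-B542 (FDR up to 0.0629). Without BEC-B542 none of the 13 rose and 3 fell. The claudin of the tight junction, Cldn5, had a Log2FC of -0.26.

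Some activity-regulated transcripts were higher at 5 days and a few receptor and channel genes lower, while no general neuronal gene passed the test. Glia and immune cells also express several immediate early genes, and the cells of origin were not tested in this whole tissue. Of 17 immediate early genes Npas4, Fosb, Fos, Fosl2, Ier2 and Jun rose, by 2.62, 1.72, 1.63, 1.37, 1.02 and 0.77 (9 rose in batch 1 alone). Npas4, an activity-dependent transcription factor of neurons, was at 7.68, 7.03, 9.06 and 12.5 CPM at 2 days and at 14.2, 47.5, 34.6 and 128 CPM at 5 days (SE 0.53, FDR 0.00231). Fos was at 18, 11.5, 23.3 and 24.3 CPM at 2 days and at 50.6, 43.7, 45.7 and 97.6 CPM at 5 days (SE 0.36, FDR 0.00469). D787 was the highest mouse in both, and the groups did not overlap. Arc, another immediate early gene, was at 149.6, 113, 212 and 203 CPM at 2 days and at 172, 129, 111 and 255 CPM at 5 days (Log2FC -0.04, FDR 0.946), with full overlap. The call of Ier2 was lost by limma voom and without any 1 of 7 mice, BEC-B541 excepted (FDR up to 0.146).

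Of 16 activity-regulated and neuropeptide genes Inhba, Nptx2, Tac2, Ptgs2 and Scg2 rose (9 rose and 1 fell in batch 1 alone, and 8 rose and 1 fell without BEC-B542). Inhba, a subunit of the neuroprotective factor activin A, was at 5.01, 6.48, 8.38 and 14 CPM at 2 days and at 76.8, 60.6, 53.6 and 126 CPM at 5 days (Log2FC 3.24, SE 0.41, FDR 4.0e-05). Nptx2, a pentraxin that gathers glutamate receptors, was at 28.9, 22.4, 35 and 62.6 CPM at 2 days and at 258, 149.9, 131 and 259 CPM at 5 days (Log2FC 2.15, SE 0.29, FDR 5.8e-05). In both genes BEC-B542 was the highest mouse of 2 days, and still below all mice of 5 days. Tac2 did not pass without covariates or with the batch label. Bdnf, Npy and Sst had a Log2FC of 0.47, 0.27 and -0.26 and did not pass, though Bdnf did in batch 1 alone, without covariates and with the batch label. Among 11 neuronal injury genes Ecel1, Atf3, Sox11, Gadd45b and Jun rose. Ecel1, a peptidase induced in injured neurons, went from 2.15 ± 0.744 to 13.1 ± 4.23 CPM (Log2FC 2.95, FDR 0.0146), and Atf3, a stress transcription factor, from 3.15 ± 2.03 to 15.2 ± 3.57 CPM (Log2FC 1.65, FDR 0.00794). The call of Ptgs2 was lost without any mouse of 5 days, D684 or BEC-B541 (FDR up to 0.126), and that of Sox11 in batch 1 alone and without D725 (FDR 0.0715). Sv2c, a vesicle protein, was the only one of 24 genes of vesicle release to pass (Log2FC 1.64, FDR 0.00596), and 1 rose and 1 fell without D684 or without BEC-B542.

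Of 12 GABA-A receptor subunits Gabra5 and Gabrd fell (median Log2FC of the list -0.34), and in batch 1 alone Gabrg1 fell as well. With the batch label 4 of the 12 fell. Gabra5, a subunit of extrasynaptic receptors enriched in hippocampal pyramidal neurons, was at 203, 206, 168 and 216 CPM at 2 days and at 89.6, 135, 101 and 115 CPM at 5 days (Log2FC -1, SE 0.22, FDR 0.00434). The groups did not overlap, with D726 the highest of the 5-day mice. Gabrd, a subunit of tonic inhibition in granule cells, was at 34.7, 18.5, 23 and 20.6 CPM at 2 days and at 7.17, 10.4, 12.7 and 9.81 CPM at 5 days (Log2FC -0.86, FDR 0.0424), and its call was lost by limma voom and without any mouse of 5 days or D683 (FDR up to 0.119). None of 15 AMPA, NMDA and kainate receptor subunits was a DEG by any of the 3 tools (median -0.18, 3 with an unadjusted p under 0.05), and in batch 1 alone Grin2b and Grin3a, subunits of NMDA receptors, rose. Of 26 potassium and HCN channels Kcnh7, Kcnb2 and Kcnt2 fell, by 1.19, 0.82 and 0.82 on the log2 scale, whereas in batch 1 alone none of the 26 fell and Kcna4 and Kcnd3 rose. Without D684 5 of the 26 fell and without BEC-B542 1 did. The calls of Kcnb2 and Kcnt2 were lost without BEC-B542, that of Kcnb2 also without BEC-B541 and that of Kcnt2 also without D786 (FDR up to 0.156 and 0.0669). Of 19 sodium and calcium channels Scn3b, an auxiliary subunit, fell from 256 ± 63.4 to 129.7 ± 25.7 CPM (Log2FC -1.03, FDR 0.00211), and Cacna1g, a low-threshold calcium channel, rose by 0.72, but not without covariates (0.48) or with the batch label (0.63). Without D684 2 of the 19 rose and 2 fell. Chrm3, a muscarinic receptor, fell from 67.3 ± 17.9 to 38.9 ± 6.07 CPM (Log2FC -0.95, FDR 1.9e-04), and in batch 1 alone it was at -0.44 and not a DEG.

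Markers of the hippocampal fields fell in part. Of 8 CA1 genes Spink8, Fibcd1 and Gpr161 fell, by 1.34, 0.93 and 0.79 on the log2 scale, and in batch 1 alone only Spink8 did. Without covariates none of the CA1 genes and none of 8 CA3 genes was a decreased DEG, and with the batch label 1 and none were. Fibcd1 was at 114, 109, 119 and 165 CPM at 2 days and at 55.5, 106, 78.4 and 73.9 CPM at 5 days (FDR 0.0413), with D726 just below the mice of 2 days. The call was lost without D725, D786, D787, D683, BEC-B541 or BEC-B542 (FDR up to 0.134). Of 12 dentate granule cell genes Tdo2 and Lct fell. Tdo2, an enzyme of tryptophan breakdown, was at 6.58, 6.65, 4.61 and 6.87 CPM at 2 days and at 0.155, 1.73, 0.498 and 0.742 CPM at 5 days (Log2FC -3.05, SE 0.46, FDR 2.1e-04). Lct was at 72.6, 42.3, 66 and 122 CPM at 2 days and at 18, 33.1, 22.2 and 21.4 CPM at 5 days (Log2FC -1.97, SE 0.35, FDR 9.5e-04). In both genes the groups did not overlap and D726 kept the highest level at 5 days. Of 8 CA3 genes Cpne4 and Iyd fell, by 0.78 and 1.03 on the log2 scale, and Csf2rb2, a cytokine receptor chain that myeloid cells also express, rose by 2.72. The calls of Gpr161, Adarb2 and Cpne4 were lost without D725, D786, D787, BEC-B541 or BEC-B542 (FDR up to 0.158, 0.198 and 0.134), Cpne4 also without D683 and in batch 1 alone, and that of Iyd without D786 (FDR 0.0887). None of 14 general neuronal genes was a DEG by any of the 3 tools (median -0.12, 2 with an unadjusted p under 0.05), with Slc17a7 at 1282 ± 88.6 and 1185 ± 91.6 CPM (Log2FC -0.31, FDR 0.52). Of 14 interneuron genes Adarb2 and Pvalb fell, by 0.71 and 0.69 on the log2 scale. Adarb2 was not a DEG in batch 1 alone (-0.11) or with the batch label (-0.64), and the call of Pvalb was lost without D726, D786, D683 or D684 (FDR up to 0.0833).

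Among the 10 largest decreases whose groups did not overlap, Rn7s1, an RNA of the signal recognition particle, came first with 5.92, 32.8, 24.6 and 17.4 CPM at 2 days and 2.09, 2.8, 1.73 and 0.978 CPM at 5 days (Log2FC -3.47, SE 0.73, FDR 0.00309). It is not polyadenylated and has many near-identical copies, so its level in mRNA libraries is uncertain. Fcrl2, an Fc receptor-like gene, was at 56.7, 46.2, 50.9 and 32.8 CPM at 2 days and 7.79, 17.5, 6.21 and 7.65 CPM at 5 days (Log2FC -1.90, SE 0.28, FDR 1.5e-04). Ltc4s, which makes leukotriene C4, fell by 2.01 on the log2 scale, and D684 held 8.25 of its CPM against 1.43 to 2.71 in the other mice of 2 days. Without D684 its FDR was 0.0558. Gmnc, Gm36742, Sebox and Smtnl2 fell by 1.82 to 2.04 from at most 6.61 ± 1.2 CPM. Besides the T cell and myeloid genes above, the 10 largest increases held Ptprcap, a partner of the lymphocyte phosphatase CD45, which went from 0.235 ± 0.143 to 9.85 ± 1.68 CPM (Log2FC 4.79).

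**Figure D4:**
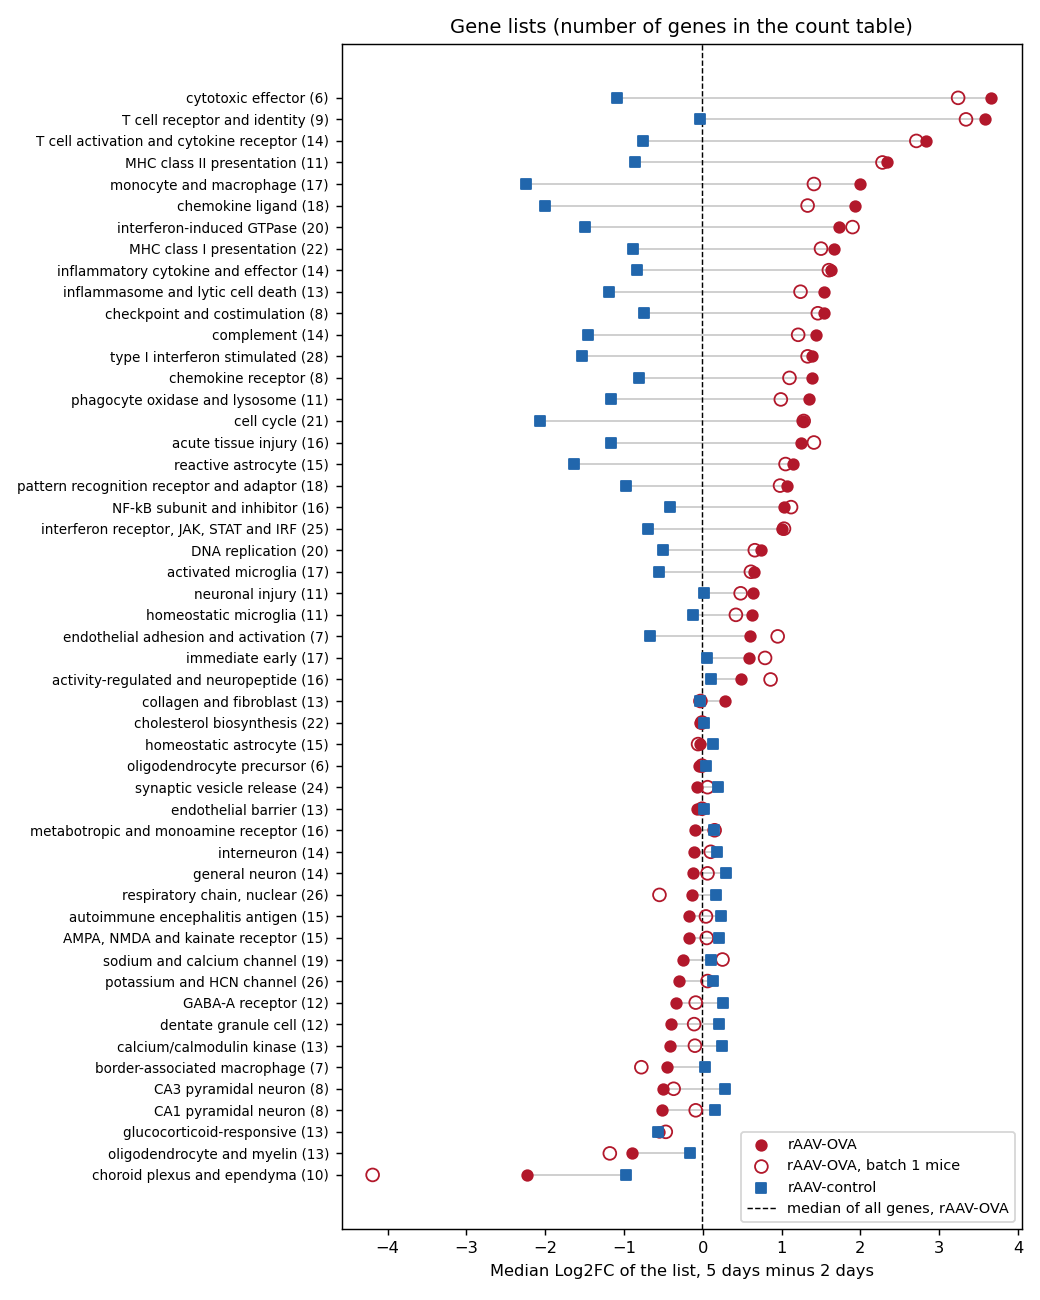
Median Log2FC from 2 to 5 days of each gene list (y axis, with its number of genes) for rAAV-OVA (filled circles), rAAV-OVA with batch 1 mice alone (open circles) and rAAV-control (squares), with a dashed line at the median of all genes, -0.01. The interferon, MHC and monocyte lists lie to the right for rAAV-OVA and to the left for rAAV-control, the cell cycle list at 1.27 and -2.06, and the open circle of the choroid plexus list lies at -4.19.

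In mice that received mCherry alone most DEGs over the same days were decreases, but their number hung on the covariates. Choroid plexus and ependyma genes were at 688 CPM or more in sum in all 4 of these mice at 2 days and at 159 CPM or less in 3 of 4 at 5 days, and their part in the counts was not tested. In rAAV-control mice 20 genes rose (0.128% of those tested) and 223 fell (1.43%), and 2922 genes had an unadjusted p under 0.05. The 243 DEGs went to 11 without covariates, to 2 with the batch label in place of the surrogate variables and to 35 in batch 1 alone. The change differed between the vectors in 2252 genes, 1569 of them higher with OVA (10%) and the others lower (4.36%). Of the 1386 DEGs of rAAV-OVA mice 1189 (85.8%) also had a called difference in the same direction, 934 of the increased (90.5%) and 255 of the decreased (72%). With batch 1 alone the difference was called in 1281 genes. The rAAV-control counts rested on single mice, since 2 DEGs were left without D723, 48 without D724, 70 without D743, 87 without D740, and 480 were called without D755.

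**Figure D5:**
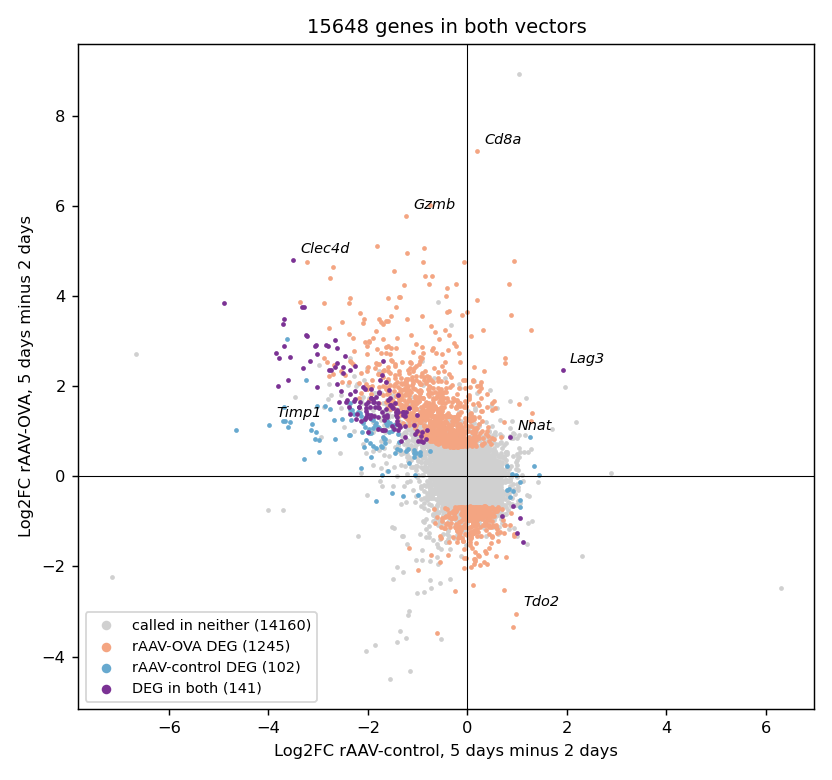
Log2FC from 2 to 5 days of 15648 genes in rAAV-control mice (x axis) and in rAAV-OVA mice (y axis), coloured by the vector in which a gene was a DEG. The 141 genes that were DEGs in both lie mostly at the upper left, increased with OVA and decreased with the control vector, and Lag3 and Nnat lie at the upper right.

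In 134 genes an increase with OVA stood against a decrease with the control vector, and in 5 genes the reverse, counts that rest on the same rAAV-control DEGs. Clec4d was at 2.53, 11.7, 0.415 and 0.625 CPM in the rAAV-control mice D740, D743, BEC-B544 and BEC-R385 of 2 days and at 0.179, 0.292, 0.148 and 0.466 CPM in D723, D724, D745 and D755 of 5 days, so these groups overlapped. D743 was the highest mouse of its group, as it was in Lcn2, at 507 CPM, and in Timp1, at 114 CPM. The difference between the vectors in Clec4d was 8.31 (SE 1.25, FDR 2.3e-04). Clec4e, Fpr2 and F10, which myeloid cells also express, had a difference of 7.98, 7.33 and 7.24. Cell cycle genes fell in 19 of 21 cases in rAAV-control mice (median -2.06), and the difference was called in 20 of 21. Mki67 went there from 14.8, 23.8, 17.5 and 28.5 CPM to 1.75, 4.42, 2.93 and 4.72 CPM, while it rose with OVA. At 2 days its rAAV-control mice thus lay above D683, D684 and BEC-B542, and BEC-B541 lay within their range.

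The direction was shared by 2 genes. Lag3 was at 6.65, 2.42, 4 and 3.99 CPM in rAAV-control mice of 2 days and at 9.49, 10.6, 15.8 and 24.1 CPM at 5 days (Log2FC 1.92, FDR 0.0182), against 5.26 ± 1.09 and 36.4 ± 4.09 CPM with OVA. The difference of 0.44 (SE 0.60) did not pass (FDR 0.638). Nnat, a developmental proteolipid of neurons, rose by 0.87 with OVA and by 0.86 with the control vector, a difference of 0.00 (SE 0.29). The rAAV-OVA mice overlapped in Nnat, and in batch 1 alone its Log2FC was 0.27 and not called. In the interferon lists 9 and 12 genes rose within rAAV-OVA mice. A called difference, higher with OVA, was found in 19 of 20 GTPases and 27 of 28 type I interferon-stimulated genes. This difference includes the change with the control vector, with list medians of -1.5 and -1.53 there and of 1.73 and 1.39 with OVA. In rAAV-control mice 0 and 2 of these genes were DEGs. Of 13 myelin genes 4 had a called difference, among them Mal, Opalin and Aspa, while Mbp and Mog did not (FDR 0.0836 and 0.0855). The change in immediate early genes differed upward in Fosl2, Fos (1.82, FDR 0.0101) and Fosb (1.67, FDR 0.0113), downward in Nr4a3, and that of Npas4 did not pass (1.87, FDR 0.0599). Tdo2 had the largest downward difference by the rule for named genes, -4.03 (SE 0.61, FDR 2.3e-04), followed by Rn7s1 with -2.86, Gm14569 with -2.58, and Cldn22 and Sebox with -2.34 each.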

How the data were processed

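RNA from the left hippocampus of 31 mice was sequenced, and the authors deposited estimated counts per gene (Salmon 1.8.0 per the labels, summarised to genes, GENCODE annotation per the study's methods) for genes with at least 15 counts in 15 or more mice. Salmon divides reads between near-identical transcripts, so levels of paralogs are uncertain. The estimated counts were scaled by TMM and tested for 15648 genes with the quasi-likelihood test of edgeR 4.0.16 (R 4.3.3). The model held group and 2 surrogate variables (sva 3.50.0) in all 31 mice. Counts were rounded for DESeq2, the principal components and the simulation. Calls passed an FDR (Benjamini-Hochberg) of 0.05 and a Log2FC of 0.66 in either direction. The difference between the vectors was an interaction contrast.

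Genes were named as the 10 largest changes per direction with non-overlapping groups and a mean of at least 1 CPM, and as examples from 54 lists. The members and lists were chosen with earlier results of these data known, and examples were picked after their values were seen. Some genes of the lists, which stay in the counts, are not reported here. The scripts were tested on simulated data. Alternatives were DESeq2 1.42.0, limma 3.58.1 (voom), other covariates, filters and subsets, and each mouse left out. No 2 libraries within a group of 2 or 5 days were duplicates, and other pairs were not compared. The labels do not say that mice of a group were from separate litters or cages, and the p-values measure the spread between these mice.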

Additional observations from a re-analysis of the deposited data

Results flagged for a closer look

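In 44 groups of 4 mice, or 5.56% of those examined, the highest or lowest mouse of a named gene lay far from the other 3, and chance flags about 1 in 20. Values are log2 CPM with the nearest of the other mice. Among the rAAV-OVA mice of 2 days, D684 was lowest with 6.28 in H2-K1 (nearest 6.78), 7.15 in Csf1r (nearest 7.52) and 5.59 in Ddit4 (nearest 5.91). BEC-B541 was lowest with -0.84 in H2-Oa (nearest -0.01), 2.23 in Tdo2 (nearest 2.73), 1.7 in Casp1 (nearest 2.28) and 1.9 in Clec7a (nearest 2.87). BEC-B542 was highest with 3.28 in Il18bp (nearest 2.17), 2.94 in Relb (nearest 2.64) and -1.07 in Fpr2 (nearest -1.97). D684 was highest with -1.82 in Mcemp1 (nearest -2.46). BEC-B542 was lowest with -1.31 in Tnfsf9 (nearest -0.9). Among the rAAV-OVA mice of 5 days, D787 was lowest with 4.13 in Lck (nearest 4.56), 5.42 in Top2a (nearest 5.78), 2.89 in Ptprcap (nearest 3.4), 0.64 in Cd80 (nearest 1.5) and 3.33 in F10 (nearest 4.29). D725 was lowest with 4.05 in Slco1a4 (nearest 4.64) and 3.32 in Gabrg1 (nearest 3.74). D726 was lowest with 4.47 in Itgax (nearest 5.06). D726 was highest with 3.7 in Kcnt2 (nearest 3.31). D725 was highest with 5.53 in Timp1 (nearest 5.04). Among the rAAV-control mice of 2 days, BEC-B544 was lowest with 2.89 in Cxcl10 (nearest 4.01). BEC-R385 was highest with 4.64 in Tap1 (nearest 3.97). D743 was highest with 2.81 in Il18bp (nearest 2.39), 4.73 in Csf3r (nearest 3.73), 4.25 in Hspb1 (nearest 3) and 3.5 in Chil3 (nearest 1.75). D743 was lowest with 4.01 in P2ry12 (nearest 4.89) and 3.7 in Kcnt2 (nearest 4.04). D740 was lowest with 3.17 in Ccne1 (nearest 3.3). D740 was highest with 4.83 in Gabrd (nearest 4.25), 2.54 in Sebox (nearest 2.27), 4.38 in Aspa (nearest 3.81) and 4.66 in Gabrg1 (nearest 3.85). BEC-R385 was lowest with 9.14 in Ttr (nearest 10.73). Among the rAAV-control mice of 5 days, D724 was highest with 3.69 in Irgm2 (nearest 2.73), 5.35 in Sv2c (nearest 5) and 2.73 in Gch1 (nearest 0.89). D755 was highest with -1.41 in Tnf (nearest -3.1). D745 was highest with 5.03 in Gabrd (nearest 4.69). D723 was lowest with 1.09 in Ltc4s (nearest 1.96). D723 was highest with 1.21 in Gm36742 (nearest 0.39). D745 was lowest with 2.49 in Tnfaip3 (nearest 3.16).

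The change from 2 to 5 days differed between the vectors, by the interaction contrast of edgeR, in 2252 genes, and in 139 of these the vectors were called in opposite directions. The difference in Log2FC, rAAV-OVA minus rAAV-control, was 8.31 for Clec4d, 7.98 for Clec4e, 7.33 for Fpr2 and 7.24 for F10, and -4.03 for Tdo2, -2.86 for Rn7s1, -2.58 for Gm14569 and -2.34 for both Cldn22 and Sebox. It was 7.17 for Il1rn, 7.08 for Cfb, 7.04 for Acod1 and 6.58 for Tnf, inflammatory genes that rose in rAAV-OVA mice. They also fell in rAAV-control mice, with a Log2FC of -3.68, -3.32, -3.29 and -3.69. In each of them D743 was the highest rAAV-control mouse of 2 days, at 13.1, 45.3, 24.6 and 4.76 CPM. It was 1.54 for Fosl2, -0.97 for Opalin, -1.1 for Aspa and -0.89 for Nr4a3.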

How the results depend on the processing

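For rAAV-OVA the main count of 1386 DEGs went to 2444 by FDR alone (62.6% up), 2165 without covariates, 2431 with the batch label in place of the surrogate variables (64.4% up), 2763 in batch 1 alone (44.5% up), 2178 in the 8 mice alone, 3220 in the 8 mice with the batch label (54.2% up), 3159 in the 6 batch 1 mice alone (58.3% up), and 2930 in the 16 mice of 2 and 5 days with the batch label (57.6% up). Leaving out 1 mouse gave 778 to 1763. For rAAV-control the 243 DEGs went to 11 without covariates, 2 with the batch label, 95 with the batch label and surrogate variables, 87 with at least 15 counts in every mouse, 570 with DESeq2, 35 in batch 1 alone and 784 in the 16 mice, and to 2 to 480 with 1 mouse left out. The 2252 differences between the vectors went to 1281 in batch 1 alone and, by FDR alone, were 57.4% upward. Surrogate variables from CPM or from counts scaled with DESeq2 size factors, chosen after seeing the data, gave 1723 and 1322 DEGs for rAAV-OVA. The causes were not tested.

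Genes that were not DEGs changed sign. Il18 went to -0.24 without covariates, -0.43 with the batch label, -0.1 with it and the surrogate variables, -0.62 in batch 1 alone, -0.26 in the 8 mice, -0.65 in these with the batch label, -0.62 in the 6 batch 1 mice and -0.57 in the 16 mice, and to -0.44 to 0.27 with 1 mouse left out. Arc went to 0.35 with the batch label, 0.12 with it and the surrogate variables, 0.15 in batch 1 alone, 0.33 in the 8 mice with the batch label, 0.36 in the 6 mice and 0.44 in the 16 mice, and to -0.24 to 0.3 with 1 mouse left out. Eomes went to 0.02 in the 16 mice, Slc17a7 to 0.05 and Il15 to -0.18 in batch 1 alone, and Il15 to -0.01 to 0.33 with 1 mouse left out. The difference between the vectors went to -0.51 for Lag3 in batch 1 alone, and for Nnat to -0.49 without covariates, -0.44 with the batch label, -0.01 with at least 15 counts in every mouse, -0.15 in batch 1 alone and -0.37 in the 16 mice, and to -0.4 to 0.33 with 1 mouse left out. Grin2b went to 0.05 with the batch label, 0.71 in batch 1 alone, 0.54 in the 8 mice with the batch label, 0.56 in the 6 mice and 0.38 in the 16 mice, and to -0.39 to 0.23 with 1 mouse left out. Nr4a3 went to 0.03, 0.07, 0.12, 0.15 and 0.16 in the same 5 settings. Of the other values of named genes over all settings, 3467 for rAAV-OVA kept their direction and side of the limits, 336 lost and 172 gained the call. No paired analysis was possible because the mice of the 4 groups are different animals whose replicate numbers only follow accession order. Depth limits genes near 1 CPM, of which the table holds only those with 15 counts in 15 mice.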

Other observations

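Genes of the phagocyte oxidase and lysosome rose in 6 of 11 cases from 2 to 5 days in rAAV-OVA mice (median Log2FC 1.35, 6 in batch 1 alone, 8 without covariates, and 3 without BEC-B542). Ctsc, the protease that activates granzymes, was at 36, 33.5, 32.1 and 57.5 CPM in D683, D684, BEC-B541 and BEC-B542 and at 339, 224, 329 and 238 CPM in D725, D726, D786 and D787 (Log2FC 2.09, SE 0.40, FDR 0.00153). Of 16 genes of acute tissue injury 8 rose (median 1.25, 8 in batch 1 alone), Lif by 3.68 and Hbegf, a growth factor of the EGF family, by 1.98. Hbegf was at 9.47, 11.5, 8.35 and 9.14 CPM at 2 days and at 43.4, 25.8, 34.5 and 50.5 CPM at 5 days (SE 0.25, FDR 2.7e-05), without overlap. Of 13 collagen and fibroblast genes Mmp14 and Fn1 rose, by 1.32 and 0.88, and in batch 1 alone 3 rose and 3 fell. The call of Fn1 was lost without any 1 of 7 mice, BEC-B541 excepted (FDR up to 0.16).

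Of 13 calcium/calmodulin kinase and related genes Camk2d rose by 0.78, a call lost without any 1 of the 8 mice (FDR up to 0.156), without covariates and with the batch label. Camkk2 and Camk2g lay lower in all mice of 5 days, with a Log2FC of -0.63 (FDR 0.00266) and -0.46 (FDR 0.00517), within the limit on Log2FC, though Camkk2 was a DEG without D684, without covariates and with the batch label, and Camk2g with the batch label. Of 13 glucocorticoid-responsive genes Ddit4 fell by 0.89 on the log2 scale (FDR 0.027), a call lost without D725 or D786 (FDR up to 0.0703), and with the batch label 4 of the 13 fell. None of 22 cholesterol synthesis genes, of 15 antigens of autoimmune encephalitis, or of 26 nuclear respiratory chain genes was a DEG by edgeR, DESeq2 or limma voom, with an unadjusted p under 0.05 in 2, 3 and 1 of them. With the batch label 1 of the 22 cholesterol synthesis genes fell. In batch 1 alone 11 of the 26 respiratory chain genes fell, 10 without BEC-B542 and 6 with the batch label. Cox4i1 was a DEG without BEC-B541 or BEC-B542 and with the batch label. Cox4i1 was at 573 and 1145 CPM in D683 and D684, at 276 and 259 CPM in BEC-B541 and BEC-B542, and at 289 to 399 CPM at 5 days, so the batch 1 mice of 2 days alone lay above the mice of 5 days. Batch and mouse cannot be told apart in this value.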
